A study of Mus musculus with 10 samples.

Results

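The 61 protein-coding core histone genes of the mouse replication clusters were followed in neuroblastoma tumours before and after combined drug treatment. They were chosen by name, as every gene identifier whose GENCODE M21 symbol begins with Hist1, Hist2, Hist3 or Hist4 followed by h2a, h2b, h3 or h4, and they make up 61 of 54446 identifiers in the count files. The linker histone genes and 3 matching entries that are not protein coding were left out. The set holds 18 H2A, 18 H2B, 12 H3 and 13 H4 genes, of which 48 lie on chromosome 13 (the Hist1 cluster), 10 on chromosome 3 (Hist2), 2 on chromosome 11 (Hist3) and 1 on chromosome 6 (Hist4h4).

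Tumour RNA was measured in TH-MYCN mice, in which a tyrosine hydroxylase promoter drives human MYCN in cells of the sympathoadrenal lineage, so that neuroblastoma arises. All 10 libraries came from this strain, and the labels give no age, sex or number of animals. The groups were untreated mice (3 libraries), mice treated for 24 h (3 libraries) and mice treated for 5 days (4 libraries). The treated groups are titled as a combination treatment. The series names the agents as MLN8237, which blocks Aurora-A, a kinase of mitosis, and AZD6738, an inhibitor of the replication checkpoint kinase ATR, although its text joins them with "or". The labels name no vehicle for the untreated mice and do not say that each library is a separate animal, so each p-value reflects how far libraries of a group lie apart, which may be technical.

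Core histones H2A, H2B, H3 and H4 form the protein spool of the nucleosome, and a cell must make a full new set whenever it copies its DNA. The clustered genes are transcribed mainly in S phase, in a nuclear body organised by NPAT, and most of their mRNAs end in a conserved stem-loop in place of a poly(A) tail. The stem-loop is bound by SLBP, which carries the mRNA through processing, export and translation, and the mRNAs are degraded when DNA synthesis stops. The libraries were made from polyadenylated RNA per the labels, so the values are levels of the histone RNA that such a selection keeps, not of total histone mRNA.

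The 3′ ends of the members are shown because a mature end at the stem-loop sets these mRNAs apart from polyadenylated ones. A 16-base pattern, the stem arm GGNNCT, the loop TTTN and the arm AGNNCC in a row, was searched on the sense strand of the GENCODE M21 coding transcripts. It was present in 40 of 61 members (65.6%) and in 32 of 21840 other protein-coding genes (0.147%). Of the 21 members without it, 14 have transcript models that end within 10 bases of the stop codon and so could not show it. The stem-loop is in capitals, with 5 transcript bases on each side.
Hist1h2ao: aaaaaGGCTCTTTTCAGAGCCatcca
Hist1h2ad: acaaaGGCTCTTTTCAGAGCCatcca
Hist3h2ba: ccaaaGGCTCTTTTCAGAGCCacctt
Hist2h3c2: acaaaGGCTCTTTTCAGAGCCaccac
Hist1h3c: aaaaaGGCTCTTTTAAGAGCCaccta
Hist1h4i: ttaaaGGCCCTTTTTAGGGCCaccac
The form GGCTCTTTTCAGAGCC was found in 23 members, and 5 other forms shared the remaining 17.
AATAAA, the sequence of the poly(A) signal, was searched over whole transcripts, so a match need not be a signal at the 3′ end. It was found in transcripts of 18 members, 8 of them among the 21 with enough counts to test. In Hist1h2ag, which was tested, and in Hist1h3f, the 1 match does not lie after the stem-loop. No share over other genes is given here.

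Encoded runs of A are shown because the pair of members with the most counts, Hist1h2ao and Hist1h2ap, carry long ones. The next 5 members by count have a longest run of 2 to 5. Of these, the transcript models of Hist1h2ah, Hist1h2af, Hist1h2an and Hist1h2ai end 0 to 2 bases after the stop codon. They could not show a run placed as in Hist1h2ao. A run of 8 or more A was present in 6 members, and all 6 had enough counts to test. So did members with short runs, such as Hist1h2ab and Hist1h2ag (longest run 4) and Hist1h2ad (5). No share of other genes with such runs is given here. The median longest run over the 61 members was 4, with models that end near the stop codon included. The run is in capitals, with 7 bases on each side.
Hist1h2ao: cgaaaagAAAAAAAAAAAAggctctt
Hist1h2ap: cgaaaagAAAAAAAAAAAAggctctt
Hist1h2ac: ctaggagAAAAAAAAAAAAAAAgttctat
Hist1h2be: gacctggAAAAAAAAAAAtcagttc
Hist1h2bc: gtaaagcAAAAAAAAtgcgtca
In Hist1h2ao and Hist1h2ap, the run of 12 A begins 26 bases after the stop codon and ends directly at the stem-loop. Of the 6 members, Hist1h2ae is not printed. Its run of 8 A begins 20 bases after the stop codon and ends 4 bases before the stem-loop. Hist1h2ae held 638 counts over all libraries, against 4716 for Hist1h2ao. In Hist1h3c, with 76 counts, a run of 7 A ends directly at the stem-loop. Whether oligo(dT) capture took place at such runs was not tested.

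Hist1h2ao (chr13:21810465-21810944, plus strand, GRCm38) and Hist1h2ap (chr13:21833026-21833507, minus strand) are near-copies. Their 393-base coding sequences are identical. Their promoter windows (250 bases before to 50 after the RefSeq start) share an unbroken run of 200 of 300 bases. The RefSeq start of Hist1h2ap lies at its coding start, inside the GENCODE transcript, while that of Hist1h2ao lies before its GENCODE transcript. The windows are therefore shifted against each other, and the shared 200 bases are the whole stretch that both cover. The 150 bases before each RefSeq start are printed 5′ to 3′ on the gene's own strand, from RefSeq with GRCm38.p6. Because of the shift, the end of the Hist1h2ao stretch is the beginning of the Hist1h2ap stretch. Their CCAAT boxes can therefore not be compared by number or position. The CCAAT box on either strand is in capitals.
Hist1h2ao, chr13:21810217-21810366, plus strand: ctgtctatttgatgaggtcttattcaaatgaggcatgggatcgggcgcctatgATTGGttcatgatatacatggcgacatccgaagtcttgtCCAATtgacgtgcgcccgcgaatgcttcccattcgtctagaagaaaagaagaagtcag
Hist1h2ap, chr13:21833476-21833625, minus strand: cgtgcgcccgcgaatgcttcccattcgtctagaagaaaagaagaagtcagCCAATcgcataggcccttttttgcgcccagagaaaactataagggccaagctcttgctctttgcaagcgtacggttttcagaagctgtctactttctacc
Promoter windows of the full 300 bases were matched for 56 members. CCAAT on either strand was present in 47 of them (83.9%), against 41.1% of 27025 promoters in the table, and the share was 18 of 18 for H2A, 16 of 16 for H2B, 10 of 10 for H3 and 3 of 12 for H4. The octamer ATTTGCAT on either strand was present in 14 (25%, against 2% of all promoters): 7 of 18 H2A, 7 of 16 H2B and 0 of the H3 and H4 promoters. TATAAA on either strand was present in 31 (55.4%, against 15.7%).

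Library totals ran from 5576926 to 5696436 counts, a range of 2.14%. Library 1 of the 5-day group stood apart: its TMM scaling factor was 0.813, against 1.00 to 1.04 in the other 9, and its summed levels of fibroblast, macrophage and adipocyte markers were the highest of the 10 libraries. Over all genes the biological coefficient of variation was 40.9%, and 19.0% without that library, so results are given with and without it. Of the genes that mark noradrenergic tumour cells, Th, which encodes tyrosine hydroxylase, ranged from 62.1 to 199 CPM over the 10 libraries, and Dbh, which encodes dopamine beta-hydroxylase, from 5.66 to 66.2 CPM, both lowest in 5-day library 1. In bulk tumour RNA, fewer cells of a type and less RNA per cell cannot be told apart.

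Together the members took 0.0248% to 0.0553% of the counts of a library. H2A genes supplied 84.4% of these member counts, H2B genes 10.5%, H4 genes 2.70% and H3 genes 2.42%. With at least 10 counts in at least 3 libraries, 21 members were tested: 12 H2A, 6 H2B, 2 H3 (Hist1h3c and Hist2h3c2) and 1 H4 (Hist1h4i). Per kilobase of transcript, the highest mean levels over all libraries were those of Hist1h2ao (173 CPM per kb) and Hist1h2ap (170 CPM per kb), followed by Hist1h2af (69.1) and Hist1h2ah (68.8). These values depend on model length, and the models of Hist1h2af (399 bases) and Hist1h2ah (405) end near the stop codon, against 480 bases for Hist1h2ao. The highest H2B gene, Hist3h2ba, had 20.5 CPM per kb and the H4 gene Hist1h4i had 4.09. Of the 2 tested H3 genes, Hist1h3c was the higher at 2.15, while the untested Hist1h3i had 2.89 and Hist1h3h 2.67. The levels rest on the authors' counting, and no source used here tells whether it used strand or how it placed reads that match several genes. Between the 66 pairs of tested H2A genes, coding sequences were 95.9% to 100% identical, with a median of 98.0%, so the split of reads among H2A copies is uncertain and their sum is firmer than each copy. The tested H2B genes differ more, with 82.7% to 98.7% identity over 15 pairs. All 12 tested H2A genes also overlap an annotated miRNA gene on the opposite strand. The overlapping miRNA genes held 0 counts in all libraries, which does not tell whether reads lying in both genes were left uncounted.

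**Figure D1:**
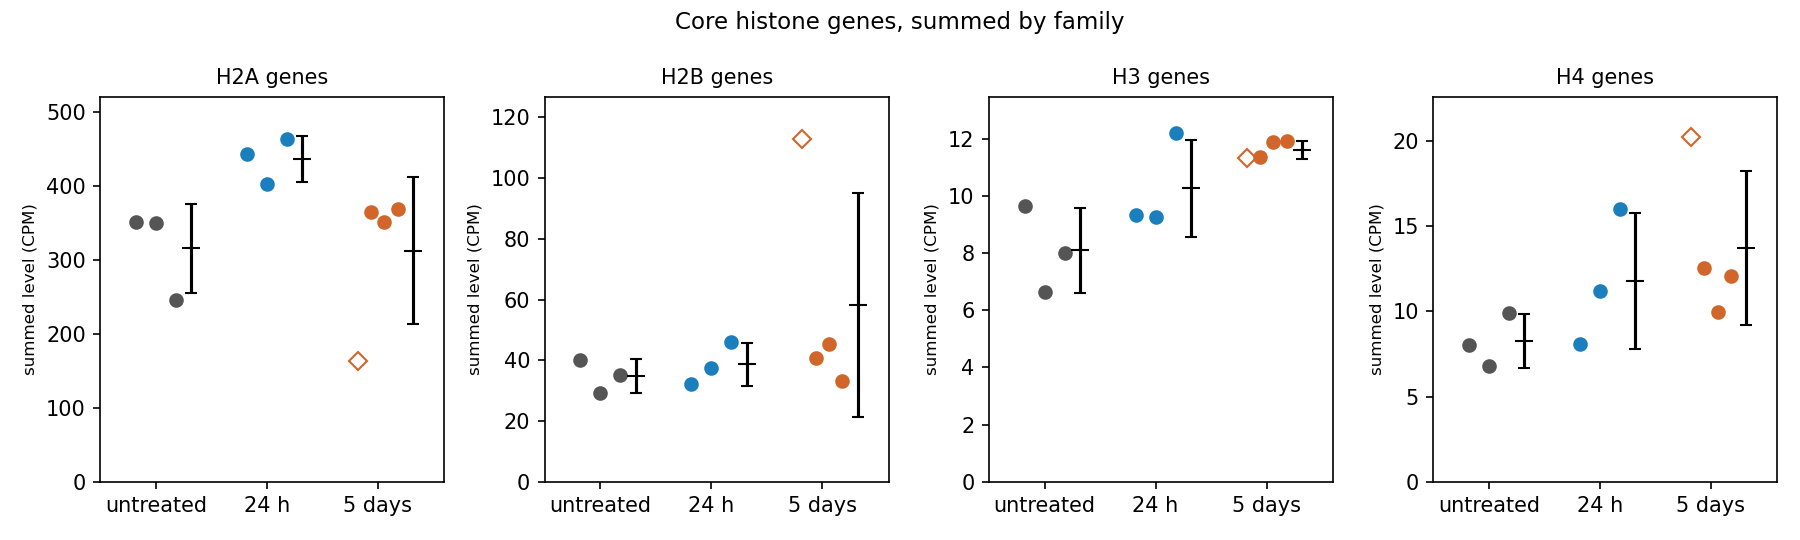
Summed CPM of the members of each histone family in each library, for the untreated, 24 h and 5-day groups; points are libraries, the open diamond is 5-day library 1, and black bars are the group mean ± SD. The H2A sums of the 3 24 h libraries (402 to 463 CPM) all lie above those of the other 7, while 5-day library 1 is lowest for H2A (164 CPM) and highest for H2B (113 CPM).

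After 24 h of treatment, H2A transcripts were higher in every 24 h library than in every untreated library when summed. The 18 H2A genes together had 443, 402 and 463 CPM in the 24 h libraries, against 351, 349 and 246 CPM in the untreated libraries. The 24 h mean was 436 ± 30.9 CPM and the untreated mean 315 ± 60.1 CPM (SD, n = 3 each), a ratio of 1.38. No H2A gene passed the test on its own, and the sum over the family carries no p-value because the family was chosen with earlier results of these data known.

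Each tested H2A gene encodes the same kind of protein, the partner of H2B in the H2A-H2B dimer, and the tested genes differ from each other at up to 16 positions of the aligned coding sequence. Hist1h2ao, the member with the most counts, had 110, 91.9 and 109 CPM after 24 h, against 80.2, 83.3 and 59.1 CPM in untreated tumours. All 3 treated values lay above all 3 untreated values, and the log2 fold change was 0.48 ± 0.27 (SE; edgeR quasi-likelihood test, adjusted p = 1 over all genes). Its near-copy Hist1h2ap had 110, 91.0 and 107 CPM after 24 h, against 83.0, 86.1 and 58.7 CPM untreated, again without overlap. Counts of the pair differed by 0% to 10.6% of their mean in each library, and since reads may be shared between the copies they do not count as separate evidence.

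Hist1h2ah had the smallest p of the members at 24 h. It had 37.1, 34.9 and 39.2 CPM after 24 h, against 27.0, 27.2 and 18.5 CPM in untreated tumours, with no overlap (log2 fold change 0.61 ± 0.29, edgeR adjusted p = 1). Hist1h2ad had 41.1, 40.2 and 39.5 CPM after 24 h, against 32.4, 28.6 and 20.03 CPM untreated. The 3 treated libraries of Hist1h2ad were close to each other and above the untreated ones, at a log2 fold change of 0.58 ± 0.34. Hist1h2ac, whose long 3′ region carries AATAAA 3 times, had 7.42, 6.46 and 10.3 CPM after 24 h, against 5.604, 6.99 and 3.14 CPM untreated. For Hist1h2ac the groups overlapped, at a log2 fold change of 0.62 ± 0.33.

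Of the 12 tested H2A genes, all had a log2 fold change above 0 at 24 h, in the range 0.20 to 0.62 with a median of 0.49, where the median over all 15030 tested genes was -0.01 and 48.5% of genes were above 0. The smallest of these values was that of Hist1h2an, named after its values were seen, with 24.3, 26.4 and 26.7 CPM after 24 h against 25.2, 25.0 and 17.2 CPM untreated. In 8 of the 12 the 24 h libraries all lay above the untreated ones, and 0 of the other 9 tested members did so. Over all tested genes 7.15% did. The H2A copies are near-identical and may share reads, so a count of H2A genes is not a count of separate results. At an adjusted p under 0.05, 0 of 21 members and 0 of 15030 genes (0%) passed in either direction by edgeR or by DESeq2. At an unadjusted p under 0.05 by edgeR, 172 genes were higher (1.14%) and 92 lower (0.612%), with 0 members among them. By DESeq2, 208 of 15030 genes were higher and 137 lower, with 1 member among those higher.

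Because all groups share the estimate of spread, 5-day library 1 widened the errors at 24 h as well. Without it, the Hist1h2ah difference was 0.62 ± 0.16 (edgeR adjusted p = 0.310) and that of Hist1h2ao 0.49 ± 0.13 (edgeR adjusted p = 0.316). The fold changes were nearly the same and the errors smaller. Then 9 of 12 H2A genes had an unadjusted p under 0.05 by edgeR, all higher after 24 h, where 4.61% of 14796 tested genes did. Without overlap were 8, where 7.18% of genes were. These H2A genes may share reads and do not count as separate evidence. Still 0 of 18 tested members passed after adjustment, while 2 genes outside the set did (0.0135%).

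**Figure D2:**
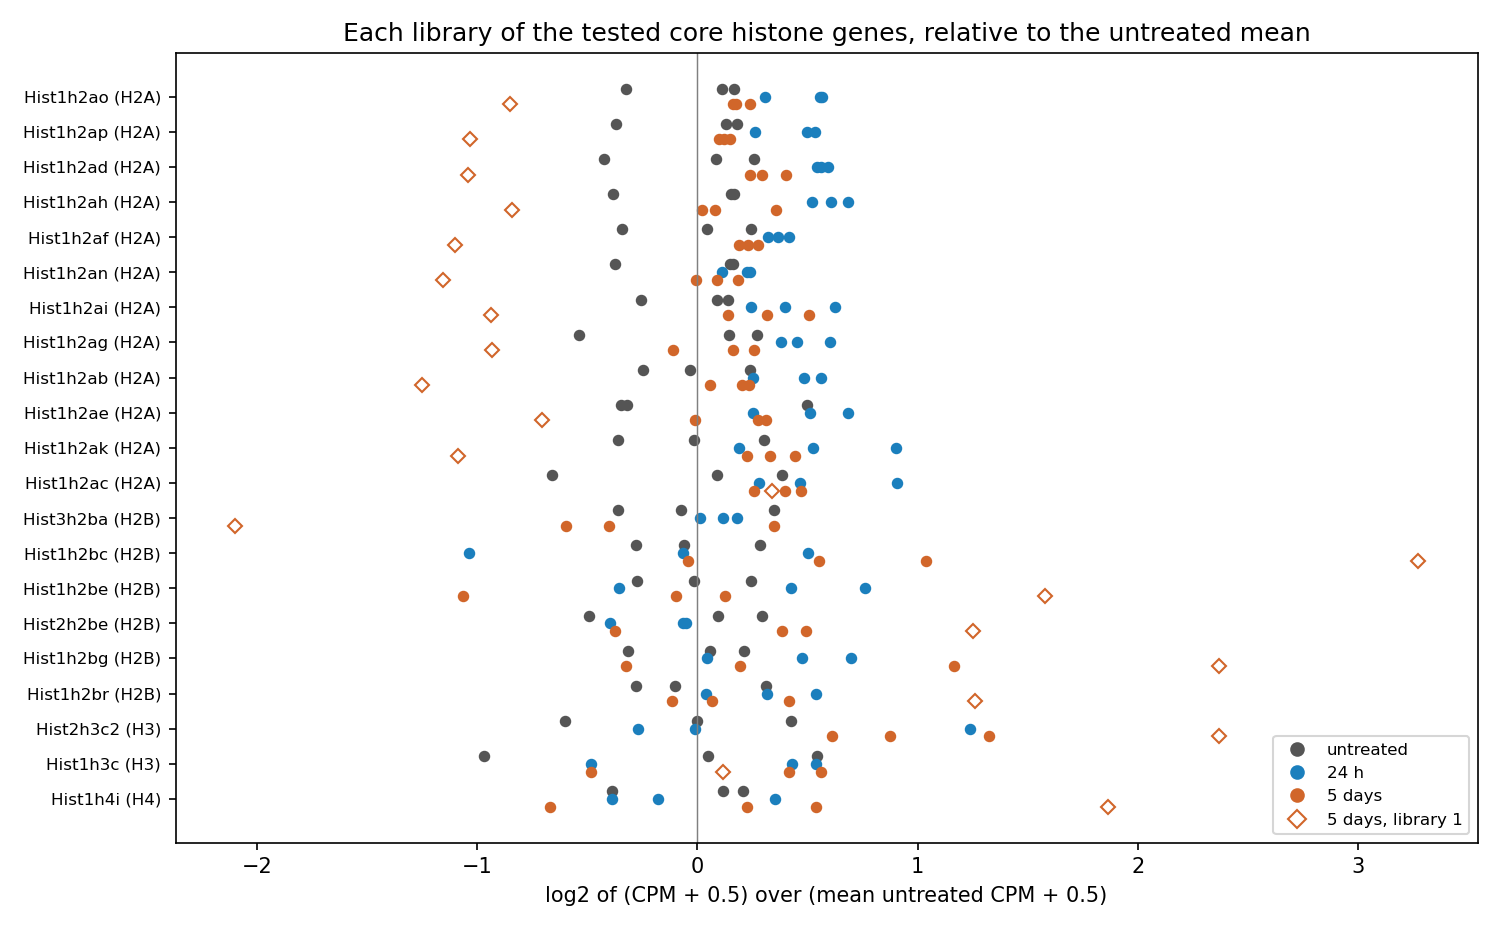
Level of each of the 21 tested members in every library, as log2 of CPM + 0.5 over the mean untreated CPM + 0.5, ordered by family and mean level. The 24 h points of the H2A genes lie mostly to the right of 0, and 5-day library 1 (open diamonds) lies far left for 11 of 12 H2A genes and for Hist3h2ba, and far right for Hist1h2bc, Hist1h2bg and Hist2h3c2.

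The H2B, H3 and H4 sums showed no such separation at 24 h. Summed H2B was 32.3, 37.6 and 46.2 CPM after 24 h, against 40.3, 29.2 and 35.0 CPM in untreated tumours, and the groups overlapped. Summed H3 was 9.32, 9.26 and 12.2 CPM after 24 h, against 9.63, 6.64 and 8.01 CPM. Summed H4 was 8.11, 11.2 and 16.0 CPM after 24 h, against 8.06, 6.81 and 9.93 CPM. Both of these also overlapped. Of the 9 tested members outside H2A, 6 had a log2 fold change above 0, where 48.5% of all tested genes did. Among those 6, Hist2h3c2, Hist1h2bg and Hist1h2br reached 10 counts only in treated libraries. They could enter the test only by being high there, so the count of 6 is partly set by the filter. Without 5-day library 1 they were not tested, and 3 of 6 members outside H2A were above 0, where 50.2% of genes were.

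Among the H2B genes, Hist3h2ba (chr11:58948920-58949533), the only tested member outside the Hist1 and Hist2 clusters, had 15.7, 15.02 and 13.9 CPM after 24 h, against 17.7, 10.7 and 13.1 CPM untreated (log2 fold change 0.11 ± 0.51). Hist1h2bc had 2.07, 4.54 and 6.97 CPM after 24 h, against 4.55, 3.84 and 5.92 CPM untreated (-0.08 ± 0.86). Hist1h2be had 2.93, 5.41 and 6.97 CPM after 24 h, against 3.85, 4.72 and 3.14 CPM untreated (0.39 ± 0.66). The treated libraries of Hist1h2bc and Hist1h2be spanned the untreated range on both sides. The annotated span of Hist1h2be, introns included, overlaps the linker histone gene Hist1h1e on the same strand. Whether the 2 genes share exon bases, so that reads could belong to either, was not tested.

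The tested H3 and H4 genes, which encode the partners of the central tetramer, were measured from few counts. Hist1h3c had 0.69, 1.92 and 1.74 CPM after 24 h, against 1.93, 0.35 and 1.22 CPM untreated, and Hist1h4i had 1.90, 1.57 and 2.96 CPM after 24 h, against 2.63, 1.57 and 2.44 CPM untreated. Hist2h3c2 had 0.52, 0.35 and 1.92 CPM after 24 h, against 0.88, 0.52 and 0.17 CPM untreated, with overlap (log2 fold change 0.80 ± 0.87). Since 3 counts correspond to 0.516 to 0.654 CPM in these libraries, some of these values rest on fewer than 5 reads. None of these genes was called.

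After 5 days, the H2A sum was 164 CPM in library 1 and 364, 351 and 369 CPM in libraries 2 to 4, against 351, 349 and 246 CPM in untreated tumours. With all 4 libraries the ratio of means was 0.99, and with libraries 2 to 4 it was 1.15. Libraries 2 to 4 lay at or just above the upper end of the untreated range, and library 1 lay below all others. Of the 12 tested H2A genes, 5 had a log2 fold change above 0 with all libraries and 12 without library 1, where 50.6% and 50.1% of all tested genes did. Without library 1 no member had an unadjusted p under 0.05 in this comparison, where 4.89% of genes were higher.

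The small H3 and H4 sums were higher in all 4 of the 5-day libraries than in the untreated ones. Summed H3 was 11.3, 11.4, 11.9 and 11.9 CPM after 5 days, against 9.63, 6.64 and 8.01 CPM untreated, with means of 11.6 ± 0.31 (SD, n = 4) and 8.09 ± 1.499 CPM (SD, n = 3). Summed H4 was 20.3, 12.6, 9.98 and 12.1 CPM after 5 days, against 8.06, 6.81 and 9.93 CPM untreated, with means of 13.7 ± 4.499 and 8.27 ± 1.57 CPM. Neither set of values overlapped, though the lowest 5-day H4 value and the highest untreated one were nearly equal, and with scaling to total counts the H3 sum of library 1 was 9.13 CPM, within the untreated range. The H2B sum was 113, 40.8, 45.4 and 33.3 CPM after 5 days, against 40.3, 29.2 and 35.0 CPM untreated, and the groups overlapped.

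None of the 21 members passed at 5 days against untreated, nor did any of the 15030 tested genes (0%) by edgeR; DESeq2 called 16 genes higher and 6 lower, and 0 members. At an unadjusted p under 0.05 by edgeR, 961 genes were higher (6.39%) and 303 lower (2.02%), among them 2 members, both higher. By DESeq2, 1390 of 15030 genes were higher and 374 lower, with 2 members among those higher. Hist2h3c2, an H3 gene of the Hist2 cluster, had 4.79, 2.07, 1.38 and 1.07 CPM after 5 days, against 0.88, 0.52 and 0.17 CPM untreated. All 4 treated values lay above the untreated ones, at a log2 fold change of 2.08 ± 0.80 (edgeR adjusted p = 0.538). It was the only one of the 21 tested members without overlap in this comparison, where 3.99% of all tested genes were higher without overlap. Of the 40 untested members, Hist1h2bl, Hist1h2bq and Hist1h4c were also higher after 5 days without overlap. These rest on 1 to 7 counts in each untreated library and 3 to 32 in each 5-day library. No share over all genes under the count minimum is given here, so they cannot be set against one. Hist2h3c2 reached 10 counts only in 3 treated libraries, so that it could enter the test only by being high there. Without library 1 it was not tested.

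Hist1h2bc, an H2B gene whose transcript model has no stem-loop and carries AATAAA, had 50.5, 10.3, 7.23 and 4.62 CPM after 5 days, against 4.55, 3.84 and 5.92 CPM untreated. Library 1 was far above the rest, and library 4 lay within the untreated range. The log2 fold change was 1.92 ± 0.84 with all libraries (edgeR adjusted p = 0.538) and 0.64 ± 0.44 without library 1 (adjusted p = 0.719). Hist1h2bg had 7.19, 1.21, 0.69 and 2.84 CPM after 5 days, against 1.23, 1.05 and 0.70 CPM untreated, and it too was tested only with library 1 in the fit (1.55 ± 0.75). Hist2h2be, which also has AATAAA and no stem-loop in its transcript model, had 7.62, 4.31, 3.96 and 2.13 CPM after 5 days, against 3.68, 1.92 and 3.14 CPM untreated. Its log2 fold change was 0.62 ± 0.43 with library 1 and 0.26 ± 0.39 without it.

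Library 1 of the 5-day group held a different mix of histone transcripts from the other 9. H2A genes made up 53.1% of its summed member CPM, and 82.3% to 89.9% in the others. Relative to the untreated mean, 11 of the 12 tested H2A genes stood at 0.39 to 0.59 in library 1, and Hist1h2ac at 1.29. The H2B gene Hist3h2ba stood at 0.21, while Hist1h2bc stood at 10.6, Hist2h3c2 at 9.14, Hist1h2bg at 7.26, Hist1h4i at 4.23, Hist1h2be at 3.24, Hist1h2br at 2.99, Hist2h2be at 2.62 and Hist1h3c at 1.12. In the same library the summed S phase genes had 1161 CPM, against 2806 to 3506 CPM in the other 9. The summed fibroblast markers had 17311 CPM in it against 201 to 2461 CPM in the others, and the macrophage markers 5858 CPM against 255 to 667 CPM. The part of these cell types in the histone values was not tested.

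**Figure D3:**
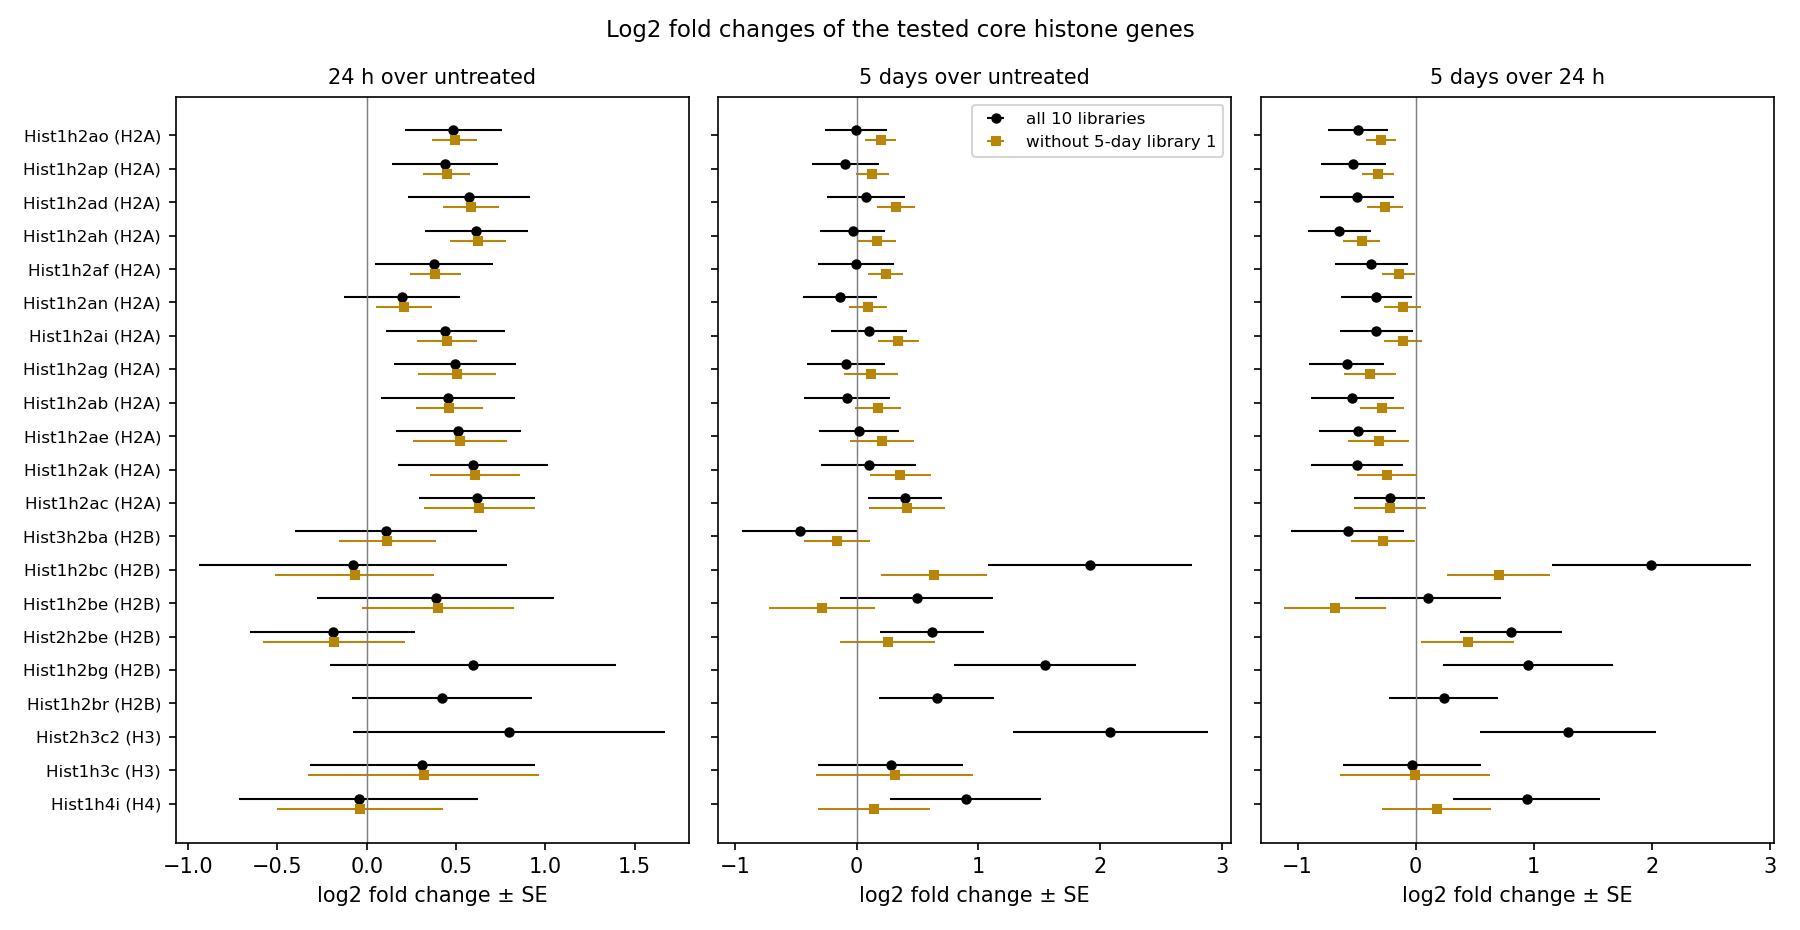
Log2 fold change ± SE from edgeR for the 21 tested members in the 3 comparisons, with all 10 libraries (black circles) and without 5-day library 1 (gold squares). At 24 h over untreated all 12 H2A genes lie right of 0 in both fits; in the 5-day comparisons Hist1h2bc lies near 2 with all libraries and at 0.64 and 0.70 without library 1, and 3 genes have no gold square because they fell under the count minimum.

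Between the treated groups, H2A transcripts were lower after 5 days than after 24 h. The H2A sum was 164, 364, 351 and 369 CPM after 5 days, against 443, 402 and 463 CPM after 24 h, without overlap and at a ratio of means of 0.72, or 0.83 without library 1. All 12 tested H2A genes had a log2 fold change below 0, with a median of -0.49, or -0.27 without library 1, where 47.2% and 50.1% of all tested genes were below 0. This comparison and that of 24 h with untreated share the 24 h libraries, so they are not independent of each other.

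At an unadjusted p under 0.05 by edgeR, 1 H2A gene was lower, and 3 without library 1, where 4.01% of genes were. In 7 H2A genes the 5-day libraries all lay below the 24 h libraries, as in 4.36% of all tested genes, and without library 1 the count was also 7, where 6.69% of genes did. No tested member outside H2A did so. Here too the H2A genes may share reads and do not count as separate evidence. Hist1h2ah had 13.3, 25.7, 24.6 and 31.1 CPM after 5 days, against 37.1, 34.9 and 39.2 CPM after 24 h. The highest 5-day value lay under the lowest 24 h value, at a log2 fold change of -0.65 ± 0.27 with all libraries (edgeR adjusted p = 0.581) and -0.46 ± 0.16 without library 1 (adjusted p = 0.581). Hist1h2ao had 41.0, 83.7, 83.1 and 87.7 CPM after 5 days, against 110, 91.9 and 109 CPM after 24 h (-0.49 ± 0.25, and -0.30 ± 0.12 without library 1). Hist1h2ap had 36.8, 84.2, 81.2 and 82.7 CPM after 5 days, against 110, 91.0 and 107 CPM after 24 h (-0.53 ± 0.27, and -0.32 ± 0.13 without library 1).

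In the other families the treated groups overlapped. The H2B sum ranged from 33.3 to 113 CPM after 5 days and from 32.3 to 46.2 CPM after 24 h, the H3 sum from 11.3 to 11.9 and from 9.26 to 12.2 CPM, and the H4 sum from 9.98 to 20.3 and from 8.11 to 16.0 CPM. Hist1h2bc had the only unadjusted p under 0.05 among members that were higher after 5 days than after 24 h (log2 fold change 2.00 ± 0.84, edgeR adjusted p = 0.581). Without library 1 its value was 0.70 ± 0.44 (edgeR adjusted p = 0.695). Again 0 of 21 members and 0 of 15030 genes (0%) passed by edgeR after adjustment, with 596 genes higher (3.97%) and 352 lower (2.34%) at an unadjusted p under 0.05. DESeq2 called 1 gene higher and 2 lower, and 0 members.

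**Figure D4:**
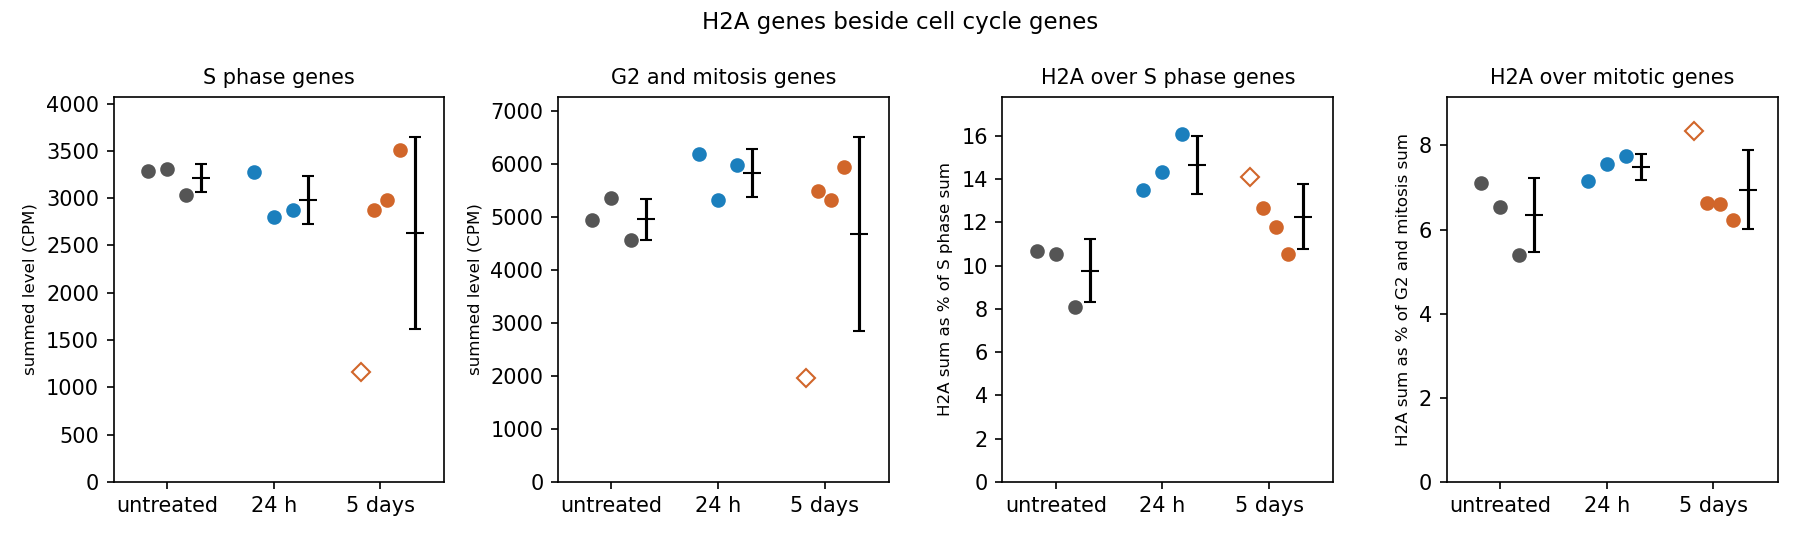
Summed CPM of 23 S phase genes and 20 G2 and mitosis genes, and the H2A sum as a percentage of each, per library; the open diamond is 5-day library 1, and black bars are the group mean ± SD. The H2A sum was 13.5% to 16.1% of the S phase sum in the 24 h libraries and 8.10% to 10.7% in the untreated ones, and 7.15% to 7.76% of the mitotic sum in the 24 h libraries, against 5.39% to 7.11% in the untreated ones.

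Against genes of the cell cycle, the H2A sum was set as a ratio within each library. As a percentage of the summed S phase genes it was 10.7, 10.5 and 8.10 in the untreated libraries, 13.5, 14.3 and 16.1 in the 24 h libraries, and 14.1, 12.7, 11.8 and 10.5 in the 5-day libraries. The 24 h values lay above the untreated ones without overlap, and the lowest 5-day value fell within the untreated range. As a percentage of the summed G2 and mitosis genes it was 7.11, 6.53 and 5.39 in the untreated libraries, 7.15, 7.57 and 7.76 in the 24 h libraries, and 8.34, 6.63, 6.60 and 6.22 in the 5-day libraries. The 24 h values again lay above the untreated ones without overlap, although the lowest 24 h value and the highest untreated value were nearly equal.

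None of the 20 tested S phase genes had a log2 fold change above 0 at 24 h, with a median of -0.09, but none passed the test. The replication licensing gene Cdc6 had 34.2, 28.8 and 30.8 CPM after 24 h, against 45.4, 56.8 and 42.7 CPM untreated (log2 fold change -0.63 ± 0.31). Cdc6 did not overlap between these groups, while the G1/S cyclin gene Ccne2 (-0.66 ± 0.46) and Dtl, a gene of an S phase ubiquitin ligase adaptor (-0.41 ± 0.42), did. At 5 days the median of the 20 was -0.31, and -0.05 without library 1. Cdc6 stood there at -0.81 ± 0.29 (-0.58 ± 0.14 without library 1), Ccne2 at -0.67 ± 0.43 (-0.42 ± 0.31) and Uhrf1, which encodes a factor that maintains DNA methylation at replication, at -0.47 ± 0.31 (-0.22 ± 0.08). Of the 20 tested G2 and mitosis genes, 18 had a log2 fold change above 0 at 24 h, with a median of 0.24, and in 9 the groups did not overlap, as in 7.15% of all tested genes. Examples are the kinesin genes Cenpe (0.57 ± 0.31) and Kif23 (0.61 ± 0.33), and Aurka (0.61 ± 0.38), the gene of the kinase that MLN8237 inhibits. At 5 days 8 of the 20 were above 0 with all libraries, and 17 without library 1, at medians of -0.06 and 0.20. The 3 with the smallest p at 5 days were the topoisomerase gene Top2a (-0.38 ± 0.32), the mitotic kinase gene Cdk1 (-0.32 ± 0.32) and Ube2c (-0.29 ± 0.32), a gene of ubiquitin transfer in mitosis. Without library 1 they stood at -0.12 ± 0.10, -0.060 ± 0.09 and -0.037 ± 0.09.

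Among the genes that make and process histone mRNA, most values lay below 0. Of 18 tested, 5 were above 0 and 13 below at 24 h (median -0.12), and 4 and 14 at 5 days (median -0.17, or -0.02 without library 1), with none called. Ncbp2, a subunit of the nuclear cap-binding complex, had 122, 133 and 122 CPM after 24 h, against 145, 155 and 152 CPM untreated (-0.26 ± 0.15), without overlap, and at 5 days it stood at -0.39 ± 0.14 (-0.28 ± 0.08 without library 1). Casp8ap2, the FLASH protein that recruits the histone cleavage machinery, had 82.9, 83.5 and 79.6 CPM after 24 h, against 102, 110 and 93.2 CPM untreated (-0.31 ± 0.21), also without overlap. The cleavage factor gene Cpsf2 stood at -0.26 ± 0.16. At 5 days Srrt, which bridges the cap-binding complex to RNA processing, stood at -0.35 ± 0.15 (-0.24 ± 0.08 without library 1), and Lsm11, a component of the U7 snRNP, at -0.34 ± 0.20 (-0.19 ± 0.13).

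Histone chaperones, which carry new histones to DNA, had a median log2 fold change of -0.06 at 24 h (9 of 23 tested above 0) and of -0.21 at 5 days (3 of 23), or -0.04 without library 1 (7 of 23). Hat1, which acetylates newly made H4, had 68.9, 61.7 and 66.2 CPM after 24 h, against 73.7, 89.8 and 72.8 CPM untreated (-0.26 ± 0.18); at 5 days it stood at -0.39 ± 0.17 (-0.26 ± 0.10 without library 1). Hjurp, the chaperone of the centromeric H3 variant, had 446, 371 and 446 CPM after 24 h, against 292, 337 and 306 CPM untreated (0.43 ± 0.31), and its cargo Cenpa stood at 0.43 ± 0.31. Neither Hat1 nor Hjurp overlapped between the 24 h and untreated groups, while Rbbp4, a histone-binding subunit of the CAF-1 complex, did (-0.23 ± 0.23). At 5 days the importin gene Ipo4 stood at -0.22 ± 0.16 (-0.095 ± 0.10 without library 1) and the nucleosome assembly gene Nap1l4 at -0.19 ± 0.14 (-0.092 ± 0.07).

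The 9 tested replication-independent core histone variants, whose mRNAs are mostly polyadenylated, had a median of -0.05 at 24 h and -0.21 at 5 days, or -0.01 without library 1. H2afj, an H2A variant, had 28.3, 29.3 and 33.1 CPM after 24 h, against 24.9, 21.8 and 20.2 CPM untreated (0.44 ± 0.23), without overlap; at 5 days it stood at 0.47 ± 0.22, with overlap. H3f3a, a gene of the H3.3 variant, stood at -0.24 ± 0.13. At 5 days H2afx, whose protein is phosphorylated at DNA breaks, stood at -0.57 ± 0.28 (-0.34 ± 0.11 without library 1), and H2afv at -0.36 ± 0.18. Of the linker histones, 5 were tested; Hist1h1c, which lies in the Hist1 cluster, had 160, 38.6, 22.4 and 13.3 CPM after 5 days, against 9.63, 6.46 and 6.97 CPM untreated. All 4 treated values were above the untreated ones, library 1 by far the most, at a log2 fold change of 2.92 ± 0.81 (edgeR adjusted p = 0.538), or 1.70 ± 0.36 without library 1 (edgeR adjusted p = 0.232). At 24 h Hist1h1c stood at 0.99 ± 0.81, without overlap. Hist1h1d stood at 0.54 ± 0.79 at 24 h and 1.40 ± 0.73 at 5 days (0.66 ± 0.61 without library 1), H1f0 at 0.17 ± 0.30 at 24 h and Hist1h1e at 0.45 ± 0.47 at 5 days, all with overlap.

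Markers of other cells also differed between the 24 h and untreated groups. The summed macrophage markers were 461, 667 and 656 CPM after 24 h, against 419, 255 and 417 CPM untreated, and 5 of the 10 markers were higher without overlap, where 7.15% of all tested genes were. Of the 10 macrophage markers, 8 had a log2 fold change above 0 and 2 below. The Schwann cell markers were 30.04, 47.3 and 62.7 CPM after 24 h, against 13.5, 22.2 and 17.1 CPM untreated, also without overlap. Fibroblast markers (1162, 1736 and 1798 CPM after 24 h, against 916, 728 and 2461 CPM untreated) and adipocyte markers overlapped. Lymphocyte markers summed to 0.69 to 1.74 CPM after 24 h, against 0.524 to 1.39 CPM untreated, with the B cell gene Ms4a1 at 0 in all 10 libraries. The adrenal cortex markers summed to 1296 CPM in 5-day library 2, 81.0 CPM in library 3 and 7.19 to 12.6 CPM elsewhere. The part of these cells in the H2A values was not tested.

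The remaining 40 members had too few counts to test. Of these, 8 had no counts in all 10 libraries, namely Hist1h2aa, Hist2h2aa1, Hist2h2aa2, Hist3h2a, Hist2h2bb, Hist2h3b, Hist2h3c1 and Hist1h4b. All 8 overlap another annotated gene, so that a read lying in both could have been left uncounted, which was not tested. The untested members together had 20.5, 17.6 and 21.8 CPM in untreated tumours, 21.1, 23.4 and 34.0 CPM after 24 h, and 46.4, 29.1, 28.2 and 28.8 CPM after 5 days. The 5-day values all lay above the untreated ones, and the 24 h values overlapped them.

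The count minimum decided which members were tested. Just inside it, with 10 counts in 3 libraries, were Hist1h2br, Hist1h2bg and Hist2h3c2. Just outside it, with 10 counts in 2 libraries, were Hist1h2bl, Hist1h3i, Hist1h2bq, Hist1h2bk, Hist1h2bh and Hist1h3e, which held 61 to 99 counts in total over the 10 libraries, against 73 to 103 counts for those just inside. Only 15 members had 10 or more counts in every library.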

How the data were processed

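Per the labels, tumours were flash frozen, Trizol was used for RNA and NEB protocols for libraries of polyadenylated RNA. The authors deposited whole-number read counts per Ensembl gene, 1 column per library. The submitters' processing notes list genome build mm10 with TopHat2 2.1.1, HISAT2 and edgeR, without roles. No source used here names the program that counted reads, its annotation, its strand mode or what became of multiply aligned reads. Near-identical histone copies may therefore share or lose reads.

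Of 54446 identifiers, 54409 had a GENCODE M21 symbol. In R 4.3.3, edgeR 4.0.16 (TMM, robust quasi-likelihood test, 1 mean per group over all 10 libraries) was fitted to genes with 10 or more counts in 3 or more libraries (15030 genes), and p-values were adjusted by Benjamini-Hochberg over all of them, with 0.05 as threshold. CPM values use the TMM-scaled library size. The standard error is the absolute log2 fold change over the square root of F. The fit was tested on simulated data. DESeq2 1.42.0, limma 3.58.1 voom weights, other scalings and filters, a replicate block and leaving out each library were alternatives.

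The members and gene lists were chosen with earlier results of these data known. Named are the 3 highest tested members of each family, the 4 with the smallest p in each comparison, the members with the fewest and most counts, and the 3 genes with the smallest p of each other list at 24 h and at 5 days. Library 1 of the 5-day group was left out as an alternative listed at the outset. Motifs were searched in GENCODE M21 transcripts and RefSeq promoters. Replicate pairs differed by more than sampling noise (chi-square per gene at least 6.48).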

Additional observations from a re-analysis of the deposited data

Results flagged for a closer look

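Library 1 of the 5-day group was set apart from libraries 2 to 4 for 7 histone values, by a test of the gap to the nearest library against the range of the 4; chance gives such a gap in about 1 group in 20. It was low for the sum of all members (308 CPM, against 419 to 429 CPM), the H2A sum (164 CPM, against 351 to 369 CPM), Hist1h2ao (41.0 CPM), Hist1h2ap (36.8 CPM) and Hist1h2ad (12.9 CPM). It was high for the H2B sum (113 CPM, against 33.3 to 45.4 CPM) and for Hist1h2bc (50.5 CPM). These 7 values are not independent, since the genes are parts of the sums. No share over all genes under the same test is given here, so the 7 cannot be read as particular to histones. Over all genes, the pairs of library 1 with libraries 2 to 4 had a chi-square per gene of 123 to 174. Pairs among libraries 2 to 4 had 7.95 to 16.3.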

How the results depend on the processing

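No member was called in any comparison under any alternative run, with all 10 libraries or with any of them left out. Over all genes, calls at 24 h against untreated were 7 with only the compared groups, 3 with voom quality weights and 2 without 5-day library 1, against 0 in the fit reported; DESeq2 called 16 genes higher and 6 lower at 5 days against untreated, and 1 higher and 2 lower against 24 h. The members' median log2 fold change at 24 h against untreated lay between 0.33 and 0.54 over all alternatives. That of 5 days against untreated (0.10) was 0.46 with no filter on low counts, and that of 5 days against 24 h (-0.33) was -0.040, both over 53 members in place of 21. Leaving out each library in turn gave -0.06 to 0.23 and -0.47 to -0.25 for these medians.

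The numbers shared between groups are not known to pair the libraries: 2 of 8 same-numbered pairs had deviations correlated over 0.1. With the replicate block, no member was called, and the medians were 0.33 at 24 h, -0.05 at 5 days and -0.29 for 5 days against 24 h. Hist3h2ba (-0.10), Hist1h2bc (0.33) and Hist1h4i (0.24) at 24 h, Hist1h2ad (-0.057) at 5 days and Hist1h2be (-0.50) at 5 days against 24 h then had the other sign. A block without 5-day library 1, added after seeing the data, gave medians of 0.53, 0.28 and -0.25, and leaving out 5-day libraries 1 and 2, also added, gave 0.45, 0.16 and -0.24; the second called 3 genes higher at 24 h against untreated and 2 lower at 5 days against 24 h, none of them members.

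Other sign changes were the following. At 5 days against untreated, Hist1h2ao was 0.0068 by DESeq2, 0.0062 with DESeq2 size factors and 0.011 with a mean of at least 5 CPM. Voom quality weights gave Hist1h2ao 0.24, Hist1h2ap 0.18, Hist1h2be -0.16 and Hist1h4i -0.22 there, and Hist1h2be -0.72 and Hist1h4i -0.21 against 24 h; total counts gave Hist1h2be -0.063 against 24 h. With each library left out in turn, values at 24 h ranged from -0.046 to 0.33 for Hist3h2ba, -0.53 to 0.27 for Hist1h2bc, -0.11 to 0.87 for Hist1h3c and -0.35 to 0.14 for Hist1h4i. At 5 days against untreated they ranged from -0.14 to 0.20 for Hist1h2ao, -0.24 to 0.13 for Hist1h2ap, -0.095 to 0.32 for Hist1h2ad, -0.28 to 0.80 for Hist1h2be and -0.15 to 0.84 for Hist1h3c. Against 24 h they ranged from -0.68 to 0.41 for Hist1h2be and -0.36 to 0.22 for Hist1h3c. The cause was not tested. The tested members with the fewest counts over all libraries were Hist2h3c2 (73), Hist1h3c (76) and Hist1h2br (86), and 3 counts are 0.516 to 0.654 CPM.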
